A study of Mus musculus with 4 samples.

Results

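Kupffer cell identity genes were examined in nuclei of mouse liver: 9 genes, chosen by symbol, of the 32285 genes in the deposited count files. Each of the 9 symbols matched 1 row. Kupffer cells are the resident macrophages of the liver sinusoid. They take up blood-borne particles, dying cells and aged erythrocytes, and they depend on signals from neighbouring endothelial cells, stellate cells and hepatocytes for their identity. The members comprise a secreted scavenger protein (Cd5l), surface receptors for dying cells, glycans, complement, haemoglobin and polyanions (Timd4, Clec4f, Vsig4, Cd163, Marco), the adhesion receptor F4/80 (Adgre1) and the transcriptional regulators Spic and Id3.

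The measurements came from droplet-based single-nucleus RNA sequencing, which counts transcripts of isolated nuclei, in non-tumor liver of male mice. Every mouse, whatever its genotype, was given the hepatocarcinogen diethylnitrosamine (DEN) when 14 days old, at a dose of 25 mg/kg, and its liver was taken at 12 months. The libraries were 2 labelled Brca1-WT and 2 labelled Brca1-KO. Brca1 encodes a DNA repair protein, and the title of the series concerns its role in the liver. The sources used here name neither the deleted exons nor the Cre driver nor the cell type of the deletion. The labels call the libraries biological replicates and say no more about the mice, so p-values measure the spread between these samples. Values are listed throughout for Brca1-WT replicates 1 and 2 and then for the libraries labelled Brca1-KO, replicates 1 and 2.

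The files held 6841, 7833, 5209 and 6708 barcodes with 36662067 to 45638888 unique molecular identifiers (UMIs, the counted transcript molecules) per library. After filters and removal of called doublets, 23868 nuclei remained, and any pair of libraries shared 9 to 20 barcodes. The Brca1 level in hepatocyte-like nuclei was 13.4, 12.4, 18.6 and 5.78 CPM (UMIs of a gene per 1000000 UMIs of the class in that library), so the library labelled Brca1-KO replicate 1 lay above both Brca1-WT libraries; a 3′ count outside the deleted part would not check the label. Macrophage-like nuclei held only 1, 1, 4 and 5 Brca1 UMIs. Libraries stood apart in the clustering: of the 4 sub-clusters of macrophage-like nuclei, one took 331 of its 363 nuclei from Brca1-WT replicate 2 and another 544 of its 564 from the library labelled Brca1-KO replicate 2. Where 1 library decides a result, the value without it is given.

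Nuclei were grouped by expression with the 9 members left out of the genes used, and groups were named from markers that include none of them. The macrophage-like group held 404, 442, 329 and 568 nuclei, 1743 in all, with median depths of 1704, 1469.5, 1539 and 1429 UMIs per nucleus. All 10 macrophage markers were detected in each library, and their summed level was 4971, 6134, 5414 and 3894 CPM. RNA of hepatocytes was present as well: 10 of 10 hepatocyte markers were detected in macrophage-like nuclei, with a summed level of 4267, 4586, 3768 and 5282 CPM. The genotype comparison of macrophage-like nuclei was therefore repeated on nuclei without an Alb UMI. An Alb UMI was seen in 76.5%, 90.5%, 72.9% and 91.4% of macrophage-like nuclei, so the repeat rests on a minority of them. There, 8 members could be tested, and all 8 had log2 fold changes below 0, with a median of -0.41. In edgeR 0 of 2717 genes passed, with 63 at an unadjusted p under 0.05. For the levels by class and the co-detection the part of hepatocyte RNA was not tested. Although the members were left out, 6 of the 10 genes with the highest fold in this group over the other nuclei were members (Vsig4, Cd163, Cd5l, Adgre1, Clec4f and Timd4); since a group is defined by all genes of its nuclei, this is a description.

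Promoter sequences were available from RefSeq (build GRCm38.p6) for 8 of the 9 members, each from 250 bases before to 50 bases after the transcript start. The sources used here do not name the authors' mouse build, so these positions are those of the RefSeq table alone. They are shown for Cd5l, the member with the smallest unadjusted p between genotypes; for Timd4 and Clec4f, whose levels in a minor macrophage sub-cluster had the lowest median ratios over libraries to those in the other sub-clusters (0.016 and 0.090); and for Id3, which was not restricted to macrophage-like nuclei. Capitals mark GAGGAA, a core bound by PU.1 and other ETS factors, and TGCTGA, part of the site bound by MAF factors, on either strand.
Cd5l: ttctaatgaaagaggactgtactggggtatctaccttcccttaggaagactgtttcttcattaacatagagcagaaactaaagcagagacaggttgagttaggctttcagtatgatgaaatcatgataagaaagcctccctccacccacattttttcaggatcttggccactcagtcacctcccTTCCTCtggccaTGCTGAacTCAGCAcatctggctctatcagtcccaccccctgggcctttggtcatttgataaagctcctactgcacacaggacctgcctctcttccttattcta
Timd4: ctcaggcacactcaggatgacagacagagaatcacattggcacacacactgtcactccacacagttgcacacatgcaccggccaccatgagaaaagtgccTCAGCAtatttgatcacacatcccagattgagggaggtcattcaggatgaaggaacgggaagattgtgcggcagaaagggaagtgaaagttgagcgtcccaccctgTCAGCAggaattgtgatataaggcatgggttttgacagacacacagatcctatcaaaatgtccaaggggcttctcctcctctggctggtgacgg
Clec4f: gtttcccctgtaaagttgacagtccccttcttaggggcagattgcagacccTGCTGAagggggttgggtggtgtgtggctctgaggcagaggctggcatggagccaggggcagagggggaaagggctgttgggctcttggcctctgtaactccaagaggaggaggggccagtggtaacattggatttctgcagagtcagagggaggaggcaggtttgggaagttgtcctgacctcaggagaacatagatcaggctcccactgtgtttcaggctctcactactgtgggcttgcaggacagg
Id3: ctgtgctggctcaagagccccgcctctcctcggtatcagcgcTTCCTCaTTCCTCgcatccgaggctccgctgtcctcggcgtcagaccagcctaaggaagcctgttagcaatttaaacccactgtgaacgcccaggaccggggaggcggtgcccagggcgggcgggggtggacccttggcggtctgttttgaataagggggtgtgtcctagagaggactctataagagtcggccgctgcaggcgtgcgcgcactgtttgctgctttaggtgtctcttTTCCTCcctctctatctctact
The Cd5l window lies at chr3:87357631-87357930 on the plus strand, the Timd4 window at chr11:46810549-46810848 on the plus strand, the Clec4f window at chr6:83656067-83656366 on the minus strand and the Id3 window at chr4:136143572-136143871 on the plus strand. GAGGAA was found in 4 of the 8 member promoters (Cd5l, Vsig4, Id3 and Marco), against 28.3% of the 32851 promoters in the table. TGCTGA was found in 5 of 8 (Cd5l, Timd4, Clec4f, Spic and Vsig4), against 19.5%. The longer form TGCTGAC, which contains TGCTGA, was found in 1 of 8 (Timd4), against 4.67%. The SMAD palindrome GGCGCC and the E-box CACGTG, both searched on both strands, were found in 0 of 8, against 11.9% and 7.15%. No match says only that these letters are not in this window, and a match is no evidence of binding. In GENCODE vM21 none of the 9 genes overlaps another gene counted in the files, on either strand.

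Of the 9 members, 8 were largely restricted to macrophage-like nuclei, and Id3 was not. Clec4f, a C-type lectin that in mice marks Kupffer cells, stood at 2010, 1467, 1344 and 1128 CPM in macrophage-like nuclei and at 7.63, 3.71, 1.51 and 2.91 in hepatocyte-like nuclei. The fold of the first over the second was 263 to 891. Hepatocyte-like nuclei should lack these genes, and their level there is taken as 1 measure of the background of the droplets. Those nuclei were deeper, with medians of 8813, 5949.5, 9513 and 7360 UMIs per nucleus. Endothelial-like nuclei, with medians of 1851, 1401.5, 1511.5 and 1255 UMIs, gave a Clec4f fold of 56.1 to 148. The part of depth in these folds was not tested.

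Cd5l, which encodes the apoptosis inhibitor of macrophages, was at 1761, 1570, 902 and 1073 CPM in macrophage-like nuclei against 4.46, 2.70, 1.27 and 1.78 in hepatocyte-like nuclei. Timd4, the phosphatidylserine receptor by which macrophages hold dying cells, was at 508, 725, 352 and 471 CPM against 0.75, 0.95, 0.34 and 0.59. Its fold of 678 to 1028 was within the range of the other surface receptors. Vsig4, a complement receptor that binds C3b, was at 912, 1066, 872 and 605 CPM against 1.36, 1.52, 0.69 and 1.08. Cd163, the receptor for haemoglobin bound to haptoglobin, was at 1026, 1237, 1278 and 626 CPM against 2.08, 1.69, 1.61 and 0.90. Adgre1 was at 832, 1064, 690 and 761 CPM against 0.89, 1.08, 0.55 and 1.26. The lowest fold of a library over its hepatocyte-like nuclei was 395 among these 5 members, for Cd5l.

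The less abundant members showed the same restriction with fewer UMIs behind it. Spic, an ETS factor that in mice is induced by heme, was at 86.3, 145, 72.5 and 57.8 CPM in macrophage-like nuclei, from 67, 110, 43 and 54 UMIs. No Spic UMI was seen in stellate-like nuclei of any library, which allows up to 2.36, 2.26, 3.14 and 2.23 CPM. Marco, a collagen-like scavenger receptor, was at 92.8, 523, 77.6 and 131 CPM, and Brca1-WT replicate 2 stood above the other 3 libraries. In hepatocyte-like nuclei Marco was at 0.44, 1.25, 0.14 and 0.31 CPM, highest in the same library.

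Endothelial-like and stellate-like nuclei held the 8 members at low levels. The median over libraries of their level in endothelial-like nuclei lay between 0.60% of the macrophage-like level for Timd4 and 1.83% for Marco. In hepatocyte-like nuclei the medians lay between 0.10% for Adgre1 and 0.39% for Spic. T or NK-like nuclei gave medians between 0.26% for Timd4 and 1.63% for Clec4f. In B-like nuclei the medians were higher for some members, between 0.60% for Marco and 8.48% for Spic, which had 4 UMIs there. Clec4f and Cd5l reached 88.4 and 74.3 CPM in the highest library of B-like nuclei. Of all UMIs of a member in a library, macrophage-like nuclei held from 66.3% (Spic, Brca1-WT replicate 1) to 94.0% (Spic, Brca1-WT replicate 2). Adgre1 was also seen outside this class, with 105.8 and 54.5 CPM in neutrophil-like nuclei of Brca1-WT replicate 1 and of the library labelled Brca1-KO replicate 2. These rest on 9 and 4 UMIs. In an unnamed cluster led by Siglech and Flt3, both genes of dendritic cells, Adgre1 was at 73.7, 202, 67.2 and 0 CPM, from 8, 10, 6 and 0 UMIs.

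Id3, an inhibitor of basic helix-loop-helix factors that Kupffer cells require in mice, had a different distribution. It stood at 39.9, 43.6, 52.3 and 20.3 CPM in macrophage-like nuclei, at 54.3, 42.0, 45.8 and 28.8 in endothelial-like nuclei, and at 44.1, 57.2, 40.9 and 23.0 in stellate-like nuclei. The ranges of the 3 classes overlapped, so their order is not resolved. Hepatocyte-like nuclei held 16.04, 7.83, 18.6 and 12.1 CPM, below the macrophage-like level of the same library in each case. Only 3.40% to 7.28% of the Id3 UMIs of a library were in macrophage-like nuclei.

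**Figure D1:**
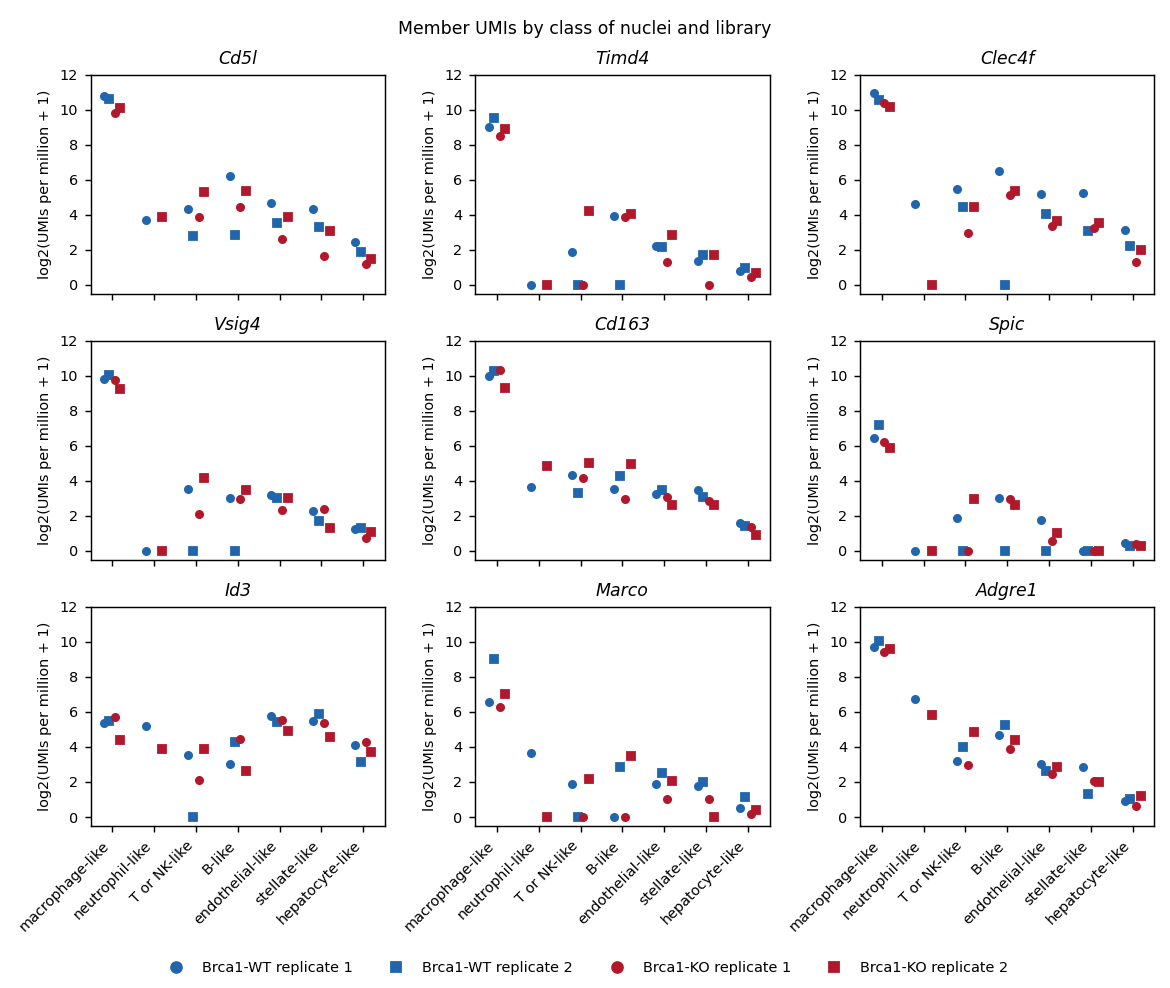
CPM, as log2 of the value plus 1, of each member (panels) in 7 classes of nuclei (horizontal axis), with 1 point per library and classes of under 20 nuclei in a library left out. Points for 8 members stand highest in macrophage-like nuclei, while Id3 points of macrophage-like, endothelial-like and stellate-like nuclei overlap.

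The shape of a member over classes was compared with the mean shape of the other 8, over 26 sums of a class in a library from 7 classes. Pearson's r on the log2 scale was 0.96 for Cd5l, 0.95 for Vsig4 and Timd4, 0.93 for Spic and Cd163, 0.90 for Clec4f, 0.89 for Marco and 0.85 for Adgre1, against 0.28 for Id3. The sums of a library share its depth and preparation, so r is a description. Among non-members of at least 50 CPM in macrophage-like nuclei, the 8 genes most like the mean of the members were Usp12, Gbp2b and Kcnk13 (r = 0.95), Pcolce2 (0.94), Slit1, C1qb and Gfra2 (0.93) and Gm14221 (0.93). C1qb encodes a chain of complement C1q and stood at 158, 182, 132 and 169 CPM in macrophage-like nuclei. No other class of these 7 exceeded 15.2 CPM for it in the 26 sums, which leave out the unnamed clusters.

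Members were next counted within single nuclei, after each nucleus was thinned to 750 UMIs so that depth could not set the count. This left out 21, 28, 19 and 16 shallower macrophage-like nuclei. A macrophage-like nucleus held a UMI of 3.11, 3.502, 2.57 and 2.31 different members on average, and without thinning of 4.31, 4.75, 3.87 and 3.53. The groups did not overlap, with means of 2.44 ± 0.19 (SD, n = 2) in Brca1-KO and 3.31 ± 0.28 (SD, n = 2) in Brca1-WT. No test was made of a score over the members. With so few libraries such a separation is common. Of all genes tested in macrophage-like nuclei, 16.9% had each library labelled Brca1-KO below each Brca1-WT library in normalised level.

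At least 3 members were seen in 67.9%, 74.2%, 53.2% and 42.2% of macrophage-like nuclei. No hepatocyte-like nucleus of any library held 3. Of the nuclei with at least 3 members, 279, 307, 166 and 234 in all, 260, 307, 165 and 233 were macrophage-like. In Brca1-WT replicate 1, 15 of the others belonged to an unnamed cluster with both endothelial and macrophage markers.

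**Figure D2:**
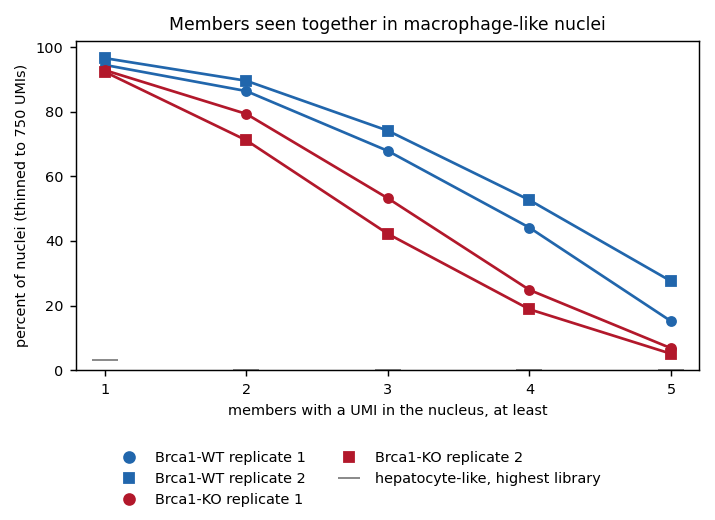
Percent of macrophage-like nuclei, thinned to 750 UMIs, that hold a UMI of at least 1 to 5 of the 9 members, with 1 line per library; grey dashes give the highest library for hepatocyte-like nuclei. At each number of members the lines labelled Brca1-KO run below the Brca1-WT lines.

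The shares of nuclei with a UMI of a single member followed its level. Cd5l was seen in 64.5%, 64.5%, 38.1% and 47.5% of thinned macrophage-like nuclei, against 0.51%, 0.32%, 0.04% and 0.17% of hepatocyte-like nuclei at the same depth. Clec4f was seen in 69.5%, 63.5%, 60.6% and 52.9%, and Timd4 in 28.7%, 34.8%, 20.3% and 24.6%. Id3 was seen in 3.13%, 1.69%, 4.52% and 1.45% of macrophage-like nuclei and in 1.41%, 0.80%, 1.09% and 0.69% of hepatocyte-like nuclei. Single nuclei at this depth are therefore poorly resolved for Id3.

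Pairs of members were seen in the same macrophage-like nucleus about as often as their separate shares predict. Of the 36 pairs, 19 had an expected count of at least 5 in each library, and over these the median ratio of observed to expected nuclei was 1.06, 1.06, 1.07 and 1.08. Cd5l and Clec4f were seen together in 600 nuclei against 551 expected, above expectation in 4 of 4 libraries. Timd4 and Clec4f were seen together in 308 against 278, also in 4 of 4. In all, 9 of the 19 pairs exceeded 1 in each library, and the ratios over libraries ranged from 0.94 for Vsig4 and Marco to 1.18 for Cd163 and Marco. Without the minor sub-cluster described next, the medians were 0.997, 1.03, 0.991 and 1.06.

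**Figure D3:**
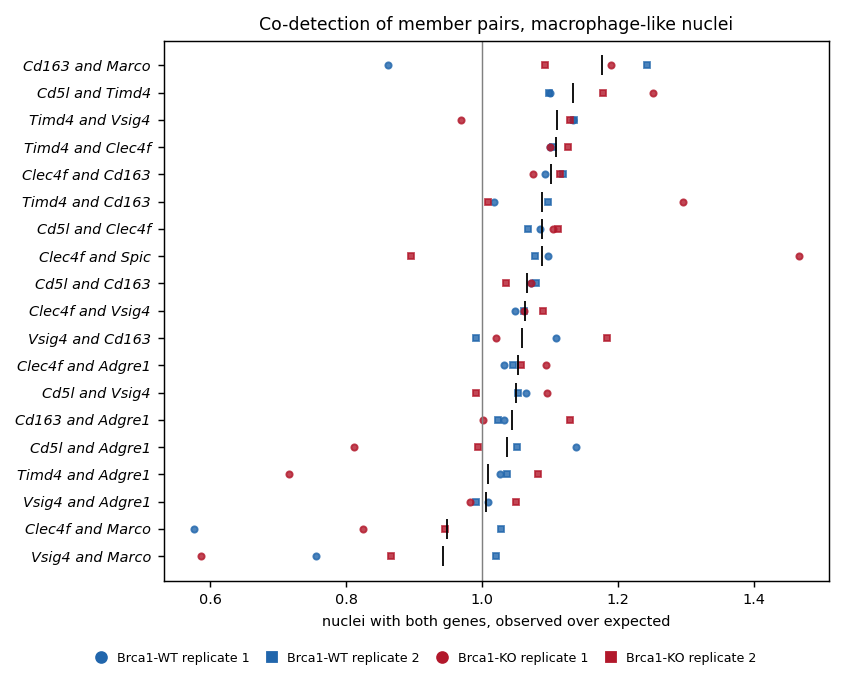
Number of thinned macrophage-like nuclei with a UMI of both genes of a pair, divided by the number expected from the 2 shares (horizontal axis), for the 19 pairs with at least 5 expected nuclei in each library; points are libraries and bars the 4 libraries together. Of the 19 bars, 17 lie above 1.

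Macrophage-like nuclei were divided again, with the members left out, into 4 sub-clusters. Sub-cluster 0 held 131 nuclei, and its leading genes included Mmp12, Gpnmb and Ccr2 (a macrophage elastase, a glycoprotein of lipid-laden macrophages and a chemokine receptor of monocytes). These genes came unequally from the libraries: Mmp12 had 18, 4, 98 and 7 UMIs there, Gpnmb 23, 23, 86 and 7, and Ccr2 25, 9, 1 and 7. Of the other scar-associated genes, Cd9 had 14 UMIs, Trem2 had 5 and Spp1 had 0 in the 4 libraries together. Cd9 was at 49.1 to 64.0 CPM in sub-cluster 0 against 1.94 to 11.1 in the other sub-clusters. Cx3cr1, listed here with monocyte-derived genes, had 30 UMIs and was at 79.0 to 180 CPM against 1.94 to 11.4. Sub-cluster 0 made up 9.16%, 8.14%, 12.8% and 2.82% of macrophage-like nuclei. The exact permutation test (2-sided) of this share between genotypes gave p = 1, and the smallest p possible with 2 libraries against 2 is 0.33.

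Cd5l, Timd4, Clec4f, Vsig4, Cd163 and Marco were lower in sub-cluster 0 than in the other sub-clusters in 4 of 4 libraries, and Adgre1 in 3. Sub-clusters rest on all genes of their nuclei, so no test was made. Timd4 had 9 UMIs there in all 4 libraries together (35.9 CPM), against 1583 (563 CPM) in sub-clusters 1 to 3. Clec4f was at 171, 164, 320 and 28.2 CPM in sub-cluster 0 against 2210, 1581, 1499 and 1171 in the others. Cd163 was at 118, 164, 218 and 0 CPM against 1124, 1331, 1439 and 651, where the 0 of the library labelled Brca1-KO replicate 2 comes from 16 nuclei. Cd5l, at 158, 589, 422 and 169 CPM, was also below its level in the others, at 1935, 1656, 975 and 1109.

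Adgre1 was at 487, 720, 307 and 1948 CPM in sub-cluster 0 against 870, 1094, 748 and 715, so 3 of 4 libraries were lower and 1 was higher. Spic had 24 UMIs in sub-cluster 0 and was lower there in 2 of 4 libraries, and Id3 had 10 UMIs and was lower in 2 of 4. Of the macrophage markers that are no members, Mertk, a receptor for uptake of dying cells, was at 2869, 2880, 2201 and 1016 CPM against 3045, 3467, 3431 and 2020. Marco was compared between sub-clusters within a library. In Brca1-WT replicate 2 it was at 599 CPM in sub-cluster 2 and 365 in sub-cluster 1, from 358 and 32 UMIs. In Brca1-WT replicate 1 it was at 638 CPM in 14 nuclei of sub-cluster 2 and 77.6 in sub-cluster 1, from 17 and 51 UMIs. In replicate 1 of those labelled Brca1-KO the values were 553 and 62.7 CPM, from 14 and 30 UMIs.

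**Figure D4:**
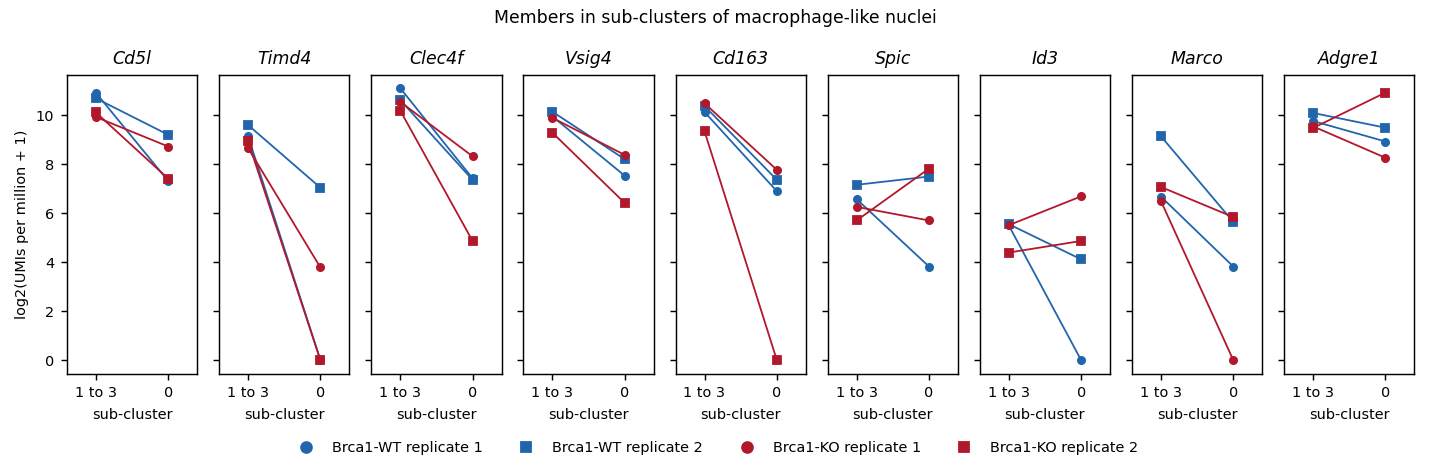
CPM, as log2 of the value plus 1, of each member in sub-clusters 1 to 3 together and in sub-cluster 0 of macrophage-like nuclei, with 1 line per library. The lines of Cd5l, Timd4, Clec4f, Vsig4, Cd163 and Marco fall in all 4 libraries, while those of Spic and Id3 fall in 2 and those of Adgre1 in 3.

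Between genotypes, all 9 members had lower fitted levels in the macrophage-like nuclei labelled Brca1-KO, and none passed the test. UMIs were summed per library and compared with edgeR's quasi-likelihood test over 8462 genes with Benjamini-Hochberg adjustment, where 0 genes (0%) passed an adjusted p of 0.05. At an unadjusted p under 0.05 there were 382 genes, 199 higher and 183 lower, and DESeq2 called 0 as well. The median log2 fold change of the 9 members was -0.43, beside 0.01 over all genes tested. Without Brca1-WT replicate 2 the members' median was -0.20, and with called doublets kept it was -0.23. When the first library labelled Brca1-KO (replicate 1) was left out, 264 genes passed, of which 0 were members; without Brca1-WT replicate 1, 2 passed.

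Cd5l had 1761, 1594, 928 and 1164 normalised CPM (scaled between libraries by the TMM method). The groups did not overlap, with a log2 fold change of -0.68 ± 0.24 (SE), an unadjusted p of 0.0215 and an adjusted p of 0.954 in edgeR. Its log2 fold change stayed below 0 under all 14 alternatives, from -0.84 to -0.48. Spic, at 86.3, 148, 74.6 and 62.7 normalised CPM, likewise did not overlap between groups. Its log2 fold change was -0.77 ± 0.32 (SE), with an adjusted p of 0.954 in edgeR. Without Brca1-WT replicate 2 the log2 fold change was -0.33, and in the minority of nuclei without an Alb UMI it was -1.63. In 5 of the 9 members (Cd5l, Clec4f, Vsig4, Spic and Adgre1) each library labelled Brca1-KO had a lower normalised CPM than each Brca1-WT library, as did 16.9% of the genes tested.

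None of the other receptors passed. Clec4f had 2010, 1489, 1383 and 1223 normalised CPM, with a log2 fold change of -0.43 ± 0.25 (SE), and -0.19 without Brca1-WT replicate 1. Timd4 had 508, 737, 363 and 511 normalised CPM, and the groups overlapped by a narrow margin, with a log2 fold change of -0.51 ± 0.27 (SE). It was -0.20 without Brca1-WT replicate 2, -0.28 and -0.77 without replicates 1 and 2 of those labelled Brca1-KO, and -0.17 in nuclei without an Alb UMI. Vsig4 had 912, 1083, 897 and 656 normalised CPM and a log2 fold change of -0.36 ± 0.24 (SE), which was -0.22 without Brca1-WT replicate 2, and -0.60 and -0.14 without replicates 1 and 2 of those labelled Brca1-KO. Adgre1 had 832, 1080, 710 and 826 normalised CPM and a log2 fold change of -0.32 ± 0.23 (SE), with the groups apart by a narrow margin; it was -0.49 and -0.11 without Brca1-WT replicates 1 and 2, and -0.20 without replicate 1 of those labelled Brca1-KO. Adjusted p-values of the 9 members in edgeR lay between 0.954 and 0.982.

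A single library set the direction of 3 members. Marco, at 92.8, 531, 79.8 and 142 normalised CPM, had a log2 fold change of -1.47 ± 0.70 (SE), and 0.28 without Brca1-WT replicate 2. Cd163, at 1026, 1256, 1315 and 679 normalised CPM, had -0.20 ± 0.33 (SE), and 0.22 when replicate 2 of those labelled Brca1-KO was left out. Id3, at 39.9, 44.3, 53.8 and 22.1 normalised CPM, had -0.20 ± 0.44 (SE), and 0.37 without that same library. In each fit without a library, the single library left in its group is assumed to vary like the other group.

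**Figure D5:**
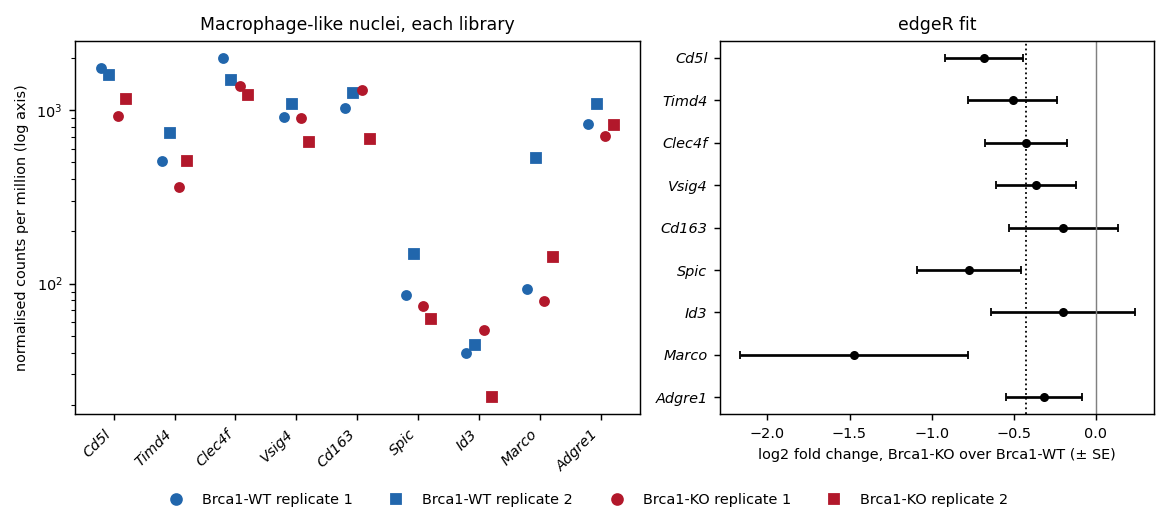
Left, normalised CPM (log axis) of each member in macrophage-like nuclei, with 1 point per library; right, log2 fold change of Brca1-KO over Brca1-WT from edgeR with its SE, a dotted line at the median of the members (-0.43) and a grey line at 0. All 9 estimates lie below 0 and none passed the adjusted threshold.

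The share of macrophage-like nuclei overlapped between genotypes. It was 6.91% (exact 95% interval 6.28 to 7.595), 6.34% (5.78 to 6.94), 6.86% (6.16 to 7.61) and 9.07% (8.37 to 9.81). The group means were 6.63% ± 0.41 (SD, n = 2) and 7.97% ± 1.56 (SD, n = 2), and the 2-sided exact permutation test gave p = 0.67. Among nuclei that were not hepatocyte-like the shares were 13.2%, 14.98%, 14.8% and 26.2%. With a finer clustering the difference of 1.34 percentage points became -0.030; there, clusters with 90 and 330 macrophage-like nuclei stayed unnamed, and replicate 2 of those labelled Brca1-KO gave 207 of the 330.

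In the other classes no member passed either, and none of the 4 fits called a gene (0%) among 11161 genes in endothelial-like, 9721 in stellate-like and 15113 in hepatocyte-like nuclei and 17145 in the sum of all kept nuclei. At an unadjusted p under 0.05 there were 269, 384, 499 and 786 genes, and DESeq2 called 0, 0, 23 and 22. With replicate 1 of those labelled Brca1-KO left out, edgeR's counts were 606, 425, 29 and 270. With replicate 2 left out instead, 52 genes passed in stellate-like nuclei. Most members that could be tested in these classes also had log2 fold changes below 0. The counts were 6 of 6 in endothelial-like, 3 of 3 in stellate-like and 7 of 8 in hepatocyte-like nuclei. Over all genes tested in these classes, 49.9%, 50.1% and 50.9% were below 0. The members' medians there were -0.45, -1.13 and -0.70, beside -0.43 in macrophage-like nuclei. The filter can keep a weakly counted member through the Brca1-WT libraries alone, which favours a fold change below 0. Without the filter 9 of 9, 8 of 8 and 8 of 9 members were below 0, with medians of -0.50, -0.62 and -0.61. Over all genes of those fits, 57.3%, 51.8% and 55.0% were below 0. Lower fitted levels were therefore not confined to macrophage-like nuclei, and the part of the droplet background in them was not tested. Id3, the member expressed in these classes, had log2 fold changes of -0.27 ± 0.29 (SE) in endothelial-like, -0.66 ± 0.33 (SE) in stellate-like and 0.41 ± 0.40 (SE) in hepatocyte-like nuclei. In stellate-like nuclei it passed in edgeR, at an adjusted p of 0.0464, only when that same replicate 1 was left out. In the sum of all kept nuclei 8 of 9 members had fitted log2 fold changes below 0, with a median of -0.63 beside 0.00 over all genes; Cd5l was at -0.89 ± 0.30 (SE) with an adjusted p of 0.800 in edgeR. Levels in that sum also move with the number of macrophage nuclei and the RNA in each, which cannot be told apart there.

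The pathway around the members was read from 9 lists of 106 different genes, 9 of which stand in 2 lists. Of these, 80 were tested in macrophage-like nuclei and 0 passed in edgeR or DESeq2, with 6 at an unadjusted p under 0.05 in edgeR. Of 21 other Kupffer genes tested, 9 had log2 fold changes below 0, with a median of 0.08; the lowest p belonged to Kcna2, a potassium channel, at 153, 216, 106 and 55.7 normalised CPM (log2 fold change -1.22 ± 0.34, SE) and to C6, a component of the membrane attack complex, at 1310, 1629, 1119 and 746 normalised CPM (-0.66 ± 0.27, SE). Of 12 regulators tested, 5 were below 0 (median 0.01), among them Maf at 812, 597, 626 and 548 normalised CPM. Of 10 niche signals and receptors, 7 were below 0 (median -0.09), including Bmp6, an iron-responsive ligand, at 52.8, 52.3, 31.2 and 17.4 normalised CPM; Tgfbr1, a TGF-beta receptor, was at 377, 373, 550 and 483 normalised CPM. Of 4 BMP-SMAD targets 1 was below 0 (median 0.08), and Smad6, an inhibitor of BMP signalling, was at 116, 137, 187 and 167 normalised CPM. Lists of iron handling (6 of 11 below 0, median -0.02), efferocytosis and scavenger receptors (3 of 10, median 0.07) and complement (3 of 9, median 0.07) were centred near 0.

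Scar-associated and monocyte-derived macrophage genes, of which Mmp12, Gpnmb and Ccr2 were among the leading genes of sub-cluster 0, varied by library. Of 4 scar-associated genes tested 1 was below 0 (median 0.77), with Mmp12 at 23.2, 5.37, 170 and 26.7 normalised CPM, highest in the library labelled Brca1-KO replicate 1. Of 7 monocyte-derived genes 6 were below 0 (median -0.34), with Ccr2 at 32.2, 14.8, 3.47 and 9.29 normalised CPM. The filter can keep a weakly counted gene such as Ccr2 through the Brca1-WT libraries alone, which favours a fold change below 0. Without sub-cluster 0, Cd5l had a log2 fold change of -0.72 and Spic of -0.86 between genotypes, and 0 genes passed.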

How the data were processed

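The deposited values were raw UMI counts per gene and barcode, made by the authors, per the file headers with version 6.0.0 of Cell Ranger. The human build GRCh38 is named in the submitters' processing notes, although all 32285 identifiers are mouse; the sources used here state neither intron counting nor strand. Per the labels, nuclei were captured with a 10x Genomics 3′ kit, and the molecule is given as genomic DNA.

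Nuclei with at least 500 genes and at most 5% mitochondrial UMIs were kept, and doublets called by Scrublet in scanpy 1.11.5 (11.3%, 7.33%, 5.01% and 2.99% of nuclei) were removed. Nuclei were clustered without batch correction on 1992 variable genes, since 8 members were left out of the 2000, with 30 components, 15 neighbours and Leiden resolution 1. A cluster was named from at least 3 markers in at least 10% of its nuclei and a score 1.5 times the next class; this rule, and the joining of T and NK markers, were set after the data were seen. Counts were summed per library and class and compared with edgeR 4.0.16 (TMM, filterByExpr) and, as an alternative, DESeq2 1.42.0, and the edgeR fit was tested on simulated data. The SE is the log2 fold change over the root of the F statistic. Intervals of shares are exact (Clopper-Pearson, 95%); where no UMI was seen, up to 3 were allowed for. Both cover counting error only.

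The promoter motifs were not among the planned choices, and TGCTGA was first searched by mistake in place of TGCTGAC; both are reported. The 9 members are always named, with at most 3 genes per list by smallest unadjusted p. Members and lists were chosen with earlier results of these data known. Alternatives were other scaling, no filter, a block on replicate number, each library left out, doublets kept and members allowed in clustering. Further ones were at most 1% mitochondrial UMIs, thinning and nuclei without an Alb UMI. The fit of macrophage-like nuclei was thinned to 750 UMIs, and the count of members per nucleus also to 500 and 1000. Other resolutions were applied to the share of macrophage-like nuclei alone, so no genotype fit was repeated at them.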

Additional observations from a re-analysis of the deposited data

Results flagged for a closer look

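In Brca1-WT replicate 1 a cluster of 61 nuclei carried both endothelial and macrophage markers and was left unnamed. It entered the sum of all kept nuclei and none of the comparisons of a named class. The 9 members summed to 3734 CPM there, a signal in nuclei outside the macrophage-like class. Cd5l was at 984 CPM and Clec4f at 1066, against 1761 and 2010 in macrophage-like nuclei of that library. The cluster's median depth was 3768 UMIs per nucleus against 1704 in macrophage-like nuclei, and called doublets had been removed. The part of doublets that were not called was not tested.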

How the results depend on the processing

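The 35 fitted log2 fold changes of members gave 359 values under alternatives, of which 345 kept direction and call. Without a filter 72, 39, 30, 2 and 2 genes passed in macrophage-like, endothelial-like, stellate-like and hepatocyte-like nuclei and in all nuclei. DESeq2 called 23 in hepatocyte-like nuclei and 22 in all nuclei. Fits without 1 library called 0 to 264, 0 to 606, 0 to 425, 0 to 29 and 0 to 270 in the same order of classes. The median of the members in macrophage-like nuclei moved between -0.60 and -0.20 without 1 library, and was -0.23 with called doublets kept. The share difference was -0.030 at Leiden resolution 2, where 2 macrophage clusters stayed unnamed. The fold over hepatocyte-like nuclei, as the median of the 9 members averaged over libraries, was 590 and became 399.7 with called doublets kept. The co-detection ratio of 1.07 became 1.11 without thinning and 1.02 without sub-cluster 0, an alternative added after the data were seen. Members that changed sign did so mostly without 1 library. In macrophage-like nuclei the fits without 1 library gave Cd163 -0.74 (without Brca1-KO replicate 1) to 0.22 (without Brca1-KO replicate 2), Id3 -0.92 to 0.37 (the same libraries) and Marco -2.25 (without Brca1-WT replicate 1) to 0.28 (without Brca1-WT replicate 2). In endothelial-like nuclei they gave Vsig4 -0.88 to 0.013 (without Brca1-KO replicate 1) and Adgre1 -0.42 to 0.10, with 0.10 without Brca1-WT replicate 1 and 0.08 without Brca1-KO replicate 1. In stellate-like nuclei Clec4f ran from -1.84 to 0.36 (without Brca1-WT replicate 1). In hepatocyte-like nuclei Id3 ran from -0.0065 (without Brca1-WT replicate 2) to 1.01, and Adgre1 from -0.82 to 0.46 (without Brca1-KO replicate 1), with 0.12 without Brca1-WT replicate 2 and 0.0079 in DESeq2. In all nuclei Id3 ran from -0.19 (without Brca1-KO replicate 1) to 0.50, with -0.15 without Brca1-WT replicate 2. The cause was not tested. Libraries share only a replicate number: deviations of same-numbered libraries correlated at -0.05 in macrophage-like nuclei and between -0.08 and -0.01 in the other sums. With the replicate number as a block, 0 genes passed in each of the 5 fits. Depth limits Spic, Id3 and Marco most. Id3 was not tested in nuclei without an Alb UMI.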
